A study of Mus musculus with 6 samples.

Results

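Blood monocytes and the macrophages they give rise to are represented here by 8 genes that mark these cells in mouse tissue: Fn1, Tgfbi, Lyz2, Ly6c2, Vcan, Plac8, S100a4 and F10. They were selected by gene symbol, with the probe set of the highest mean standing for a gene. All 8 were on the array, each with 1 probe set, among 19505 named genes and 22206 probe sets. The arrays measured RNA of brain microglia, the macrophages that reside in brain tissue, taken at the peak of EAE (experimental autoimmune encephalomyelitis), an induced brain inflammation that models multiple sclerosis in mice. CKO mice (3 arrays) are labelled as a conditional knock-out in B cells, and the series title speaks of GM-CSF-expressing B cells, GM-CSF being a growth and activation factor of monocytes and macrophages. A further 3 arrays came from mice labelled control. No source used here gives the deleted gene, the Cre driver or the age of the mice. All mice were female C57BL/6, immunized with 100 μg of recombinant myelin oligodendrocyte glycoprotein (rMOG) in 100 μL of adjuvant (IFA), and given 300 ng of pertussis toxin intravenously at immunization and again 48 h later. Nothing in the labels says that replicates are separate animals, so the spread behind each p-value may be technical.

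In EAE, monocytes of the blood enter the brain and spinal cord, where they turn into macrophages beside the resident microglia. Classical mouse monocytes carry Ly6C on their surface and follow the chemokine receptor CCR2 into inflamed tissue. After entry they lay down matrix proteins, degrade debris and take up some genes of tissue macrophages, so a gene set from blood monocytes and from their progeny need not move as a unit. Several of these genes are also used by other cells. Lysozyme is made by neutrophils and by activated microglia, and fibronectin and versican are made by stromal and glial cells.

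The isolates carried the RNA of their label and that of other cells. P2ry12, a purine receptor of microglia, had log2 values of 19.65, 19.72 and 19.70 on CKO replicates 1, 2 and 3, and 19.31, 19.35 and 18.76 on control replicates 1, 2 and 3, close to the highest value on any array (19.93). Tmem119, another microglial gene, was at 14.77, 12.41 and 12.29 in CKO and at 14.03, 13.75 and 13.01 in controls. S100a8, a gene of neutrophils and monocytes, had means of 17.09 in CKO and 17.30 in controls. These lay above the means of Tmem119 (13.16 and 13.60) and below those of P2ry12 (19.69 and 19.14). Levels of different probe sets do not rank the amounts of these cells. The arrays differed in their spread: the interquartile range was 4.0 on CKO replicate 1, 3.08 and 3.11 on CKO replicates 2 and 3, and 3.66 to 3.74 on the control arrays. Astrocyte genes stood highest on CKO replicate 1 and control replicate 2, whose list mean lay 2.53 and 1.11 above the mean of all arrays, against -1.32 to -0.75 on the other arrays. What these features contribute to the differences below was not tested, and results that rest on such arrays are given with and without them.

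All 8 genes had lower mean values in CKO isolates, as did 44.5% of probe sets, with a median difference of -1.76 log2 units (CKO minus control), beside a median of 0.05 over all named genes. The difference was at least 1 log2 unit for 6 members and at least 2 for 4, sizes reached downward by 4.42% and 0.847% of probe sets. None passed the test over all probe sets, a two-sided limma test at a Benjamini-Hochberg adjusted p under 0.05, which called 0.00901% of probe sets (2 of 22206). At an unadjusted p under 0.05, 4 members were lower and 0 higher, where 6.35% of all probe sets were lower and 3.55% higher. The same 4, Fn1, Tgfbi, Lyz2 and S100a4, had CKO values that all lay below the control values, as did 8.48% of probe sets, while 0 members and 5.94% of probe sets had CKO values all above. Ly6c2, Plac8, F10 and Vcan had overlapping groups. With RNA from a bulk isolate, fewer monocyte-derived cells and less of these transcripts per cell cannot be told apart.

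**Figure D1:**
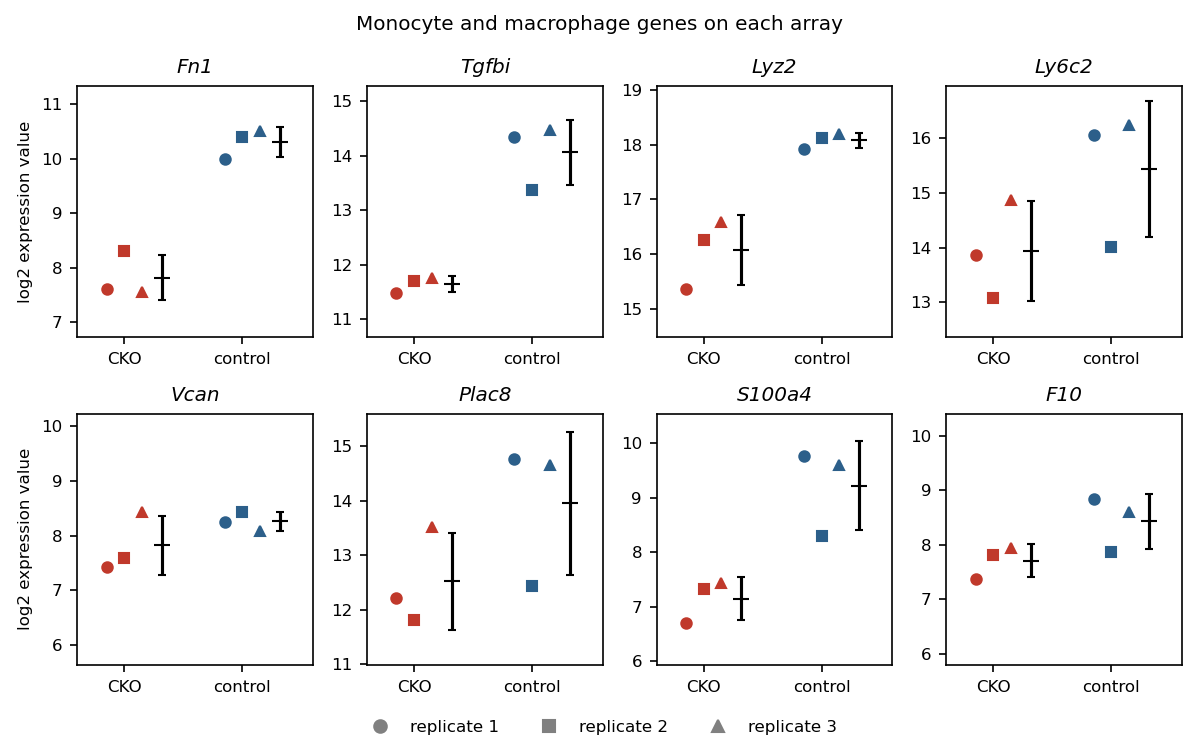
Log2 expression values of the 8 genes on each array, CKO on the left and control on the right of each panel. Symbols give the replicate number, and the bar gives the mean and SD of the 3 arrays. All panels span the same number of log2 units. Fn1, Tgfbi, Lyz2 and S100a4 have CKO arrays wholly below the control arrays, and the other panels overlap.

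The promoter sequences of Lyz2, Lyz1, Tgfbi and S100a4 are shown because Lyz2, Tgfbi and S100a4 are members whose groups did not overlap, and because Lyz1 is a neighbouring copy of Lyz2 with a like difference. RefSeq promoter windows (GRCm38.p6) were found for 7 of the 8 members by symbol, and Fn1 was not matched. Each line gives the 250 bases before the annotated start, 5′ to 3′ on the gene's strand. Capitals mark matches to AGGAAGT (the core bound by ETS factors such as PU.1), GAAANNGAA (a core of interferon response elements) or TATAAA (the TATA box), on either strand. Lyz2 lies on the minus strand at chr10:117282273-117282522, Lyz1 on the minus strand at chr10:117292869-117293118, Tgfbi on the plus strand at chr13:56609336-56609585 and S100a4 on the plus strand at chr3:90603520-90603769.
Lyz2: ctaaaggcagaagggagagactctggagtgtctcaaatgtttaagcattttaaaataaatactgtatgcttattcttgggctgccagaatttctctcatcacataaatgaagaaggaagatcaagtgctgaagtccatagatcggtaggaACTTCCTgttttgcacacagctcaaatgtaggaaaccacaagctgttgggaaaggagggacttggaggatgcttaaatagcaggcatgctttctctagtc
Lyz1: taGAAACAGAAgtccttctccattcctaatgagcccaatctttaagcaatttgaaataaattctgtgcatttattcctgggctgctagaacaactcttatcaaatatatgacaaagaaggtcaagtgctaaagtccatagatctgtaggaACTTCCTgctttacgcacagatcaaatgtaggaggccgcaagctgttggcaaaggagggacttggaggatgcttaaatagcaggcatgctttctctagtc
Tgfbi: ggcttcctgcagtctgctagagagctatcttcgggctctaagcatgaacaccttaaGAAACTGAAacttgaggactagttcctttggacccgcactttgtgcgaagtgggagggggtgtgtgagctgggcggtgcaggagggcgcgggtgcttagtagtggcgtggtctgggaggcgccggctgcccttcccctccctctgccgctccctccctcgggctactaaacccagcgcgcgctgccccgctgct
S100a4: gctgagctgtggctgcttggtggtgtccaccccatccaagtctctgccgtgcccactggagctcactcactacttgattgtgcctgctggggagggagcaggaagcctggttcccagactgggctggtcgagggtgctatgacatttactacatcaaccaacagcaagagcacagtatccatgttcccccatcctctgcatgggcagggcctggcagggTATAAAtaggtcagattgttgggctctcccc

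The windows of Lyz2 and Lyz1 shared 200 identical bases over 252 aligned columns (79.4%), and both held the ETS core from base -100 to -94. Among the members that core was found in Lyz2 and Ly6c2, 2 of 7, and it occurs in 7.77% of 27018 promoter windows of 1 start per gene. Tgfbi held the interferon response core from base -194 to -186, which 7.17% of the windows hold, and Lyz1 held it from base -248 to -240. S100a4 held a TATA box from base -31 to -26, found in 13% of windows. The 3 motifs were picked after these sequences had been seen and do not overlap one another at the sites marked. A match describes letters and does not show binding.

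Fn1 and Tgfbi, which encode secreted matrix proteins, had the largest differences of the set. Fn1 encodes fibronectin, a matrix glycoprotein that macrophages bind through integrins. Its log2 values were 7.62, 8.30 and 7.55 on CKO replicates 1, 2 and 3, and 10, 10.40 and 10.51 on control replicates 1, 2 and 3. The arrays of the groups were 1.70 log2 units apart at their closest. The mean was 7.82 ± 0.41 in CKO and 10.30 ± 0.27 in controls (SD, n = 3 each), a difference of -2.48 (SE 0.31, 95% interval -3.20 to -1.76, limma adjusted p = 0.0745), or 5.58-fold lower. Fn1 ranked 10th of 22206 probe sets by p. Fn1 stood above 53.4% to 64.8% of probe sets on the CKO arrays and above 79.6% to 83.8% on the control arrays. No measure of signal over background was available, so how far the CKO values stood above background was not tested.

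Tgfbi encodes a TGF-β-induced adhesion protein of the extracellular matrix. It was at 11.48, 11.70 and 11.76 on CKO replicates 1, 2 and 3, and at 14.35, 13.37 and 14.47 on control replicates 1, 2 and 3. The CKO arrays lay close together and the control arrays did not: control replicate 2 deviated by -1.04 from the mean of the other controls. The means were 11.65 ± 0.15 in CKO and 14.06 ± 0.60 in controls (SD, n = 3 each), and the difference was -2.42 (SE 0.35, 95% interval -3.21 to -1.62, limma adjusted p = 0.0891), 5.34-fold lower in CKO. At an adjusted p under 0.1, the threshold passed by 0.198% of probe sets, all of them lower in CKO, Fn1 and Tgfbi were the members called.

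Vcan encodes versican, a large proteoglycan of the provisional matrix that monocytes release. It differed least. Its values were 7.43, 7.59 and 8.43 on CKO replicates 1, 2 and 3, and 8.25, 8.43 and 8.09 on control replicates 1, 2 and 3. CKO replicate 3 equalled the highest control, and the groups overlapped. The difference of -0.44 (SE 0.33, 95% interval -1.20 to 0.32, limma adjusted p = 0.657) was within the spread between arrays. It depended on single CKO arrays, at -0.75 without CKO replicate 3 and -0.25 without CKO replicate 1. Sox10, a factor of the oligodendrocyte lineage that includes a glial source of versican, was at 7.51, 7.81 and 8.73 in CKO and at 7.53, 6.88 and 6.70 in controls. Cspg4 and Olig2, also of that list, differed by -0.14 and 0.02. The oligodendrocyte and precursor list had a mean level of 7.67 to 9.07 in CKO and 7.45 to 8.71 in controls over 10 measured genes. Its mean deviation was 1.03, -0.38 and -0.15 on CKO replicates 1, 2 and 3, and -0.59, 0.67 and -0.58 on control replicates 1, 2 and 3. The part of these cells in the Vcan values was not tested.

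Ly6c2 and Plac8, genes of freshly arrived classical monocytes, varied more between arrays of the same group than the matrix genes did. Ly6c2 encodes a chain of the Ly6C surface antigen. Its values were 13.87, 13.07 and 14.88 on CKO replicates 1, 2 and 3, and 16.06, 14.02 and 16.25 on control replicates 1, 2 and 3. Control replicate 2 deviated by -2.14 from the mean of the other controls and lay below CKO replicate 3. The means were 13.94 ± 0.91 in CKO and 15.44 ± 1.24 in controls, and the difference of -1.50 (SE 0.66, limma adjusted p = 0.504) had a 95% interval from -3.01 to 0. Ly6c1, a near-identical neighbour that endothelial cells also express, followed it closely: Ly6c2 minus Ly6c1 was -0.13, -0.53 and -0.17 in CKO and -0.10, -0.27 and -0.08 in controls, so the probe sets of these paralogs may not separate them.

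Plac8 encodes a small cysteine-rich protein of myeloid and lymphoid cells. It was at 12.21, 11.82 and 13.52 on CKO replicates 1, 2 and 3, and at 14.76, 12.43 and 14.65 on control replicates 1, 2 and 3. Its order over the arrays was nearly that of Ly6c2: control replicate 2 deviated by -2.28 from the mean of the other controls, and CKO replicate 3 was the highest CKO array. The difference was -1.43 (SE 0.68, 95% interval -2.98 to 0.12, limma adjusted p = 0.529). Once each gene was centred on its mean over the arrays, Ly6c2 and Plac8 were the closest of the 28 member pairs, at a mean absolute difference of 0.157 log2 units over 6 arrays. Without control replicate 2 the differences were -2.21 for Ly6c2 and -2.19 for Plac8, and without control replicate 1 they were -1.19 and -1.02, so the size of both differences depended on which control array was kept.

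Lyz2 and S100a4, which act in macrophage killing and in cell motility, separated the groups. Lyz2 encodes lysozyme M, which cuts bacterial cell walls. It was at 15.36, 16.25 and 16.59 on CKO replicates 1, 2 and 3, and at 17.92, 18.13 and 18.19 on control replicates 1, 2 and 3. All 3 controls lay within 0.27 log2 units, and control replicate 2 was not low, unlike its Ly6c2 value. The difference was -2.01 (SE 0.36, 95% interval -2.83 to -1.20, limma adjusted p = 0.108), 4.04-fold lower in CKO. Lyz1, the neighbouring gene on chromosome 10, was at 5.78, 6.23 and 6.35 in CKO and at 8.12, 7.63 and 8.45 in controls, a difference of -1.95 (limma adjusted p = 0.103). Lyz2 minus Lyz1 was 9.58, 10.02 and 10.24 in CKO and 9.80, 10.50 and 9.74 in controls. The authors' probe summary could share signal between these paralogs, which was not tested. With Lyz1 this far below Lyz2, the Lyz1 difference in particular cannot be assigned to Lyz1 alone.

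S100a4 encodes a calcium-binding protein of motile cells. It was at 6.70, 7.33 and 7.43 on CKO replicates 1, 2 and 3, and at 9.77, 8.29 and 9.60 on control replicates 1, 2 and 3. Control replicate 2 was the lowest control, deviating by -1.39 from the mean of the others, yet still 0.86 above the highest CKO array. The means were 7.15 ± 0.40 in CKO and 9.22 ± 0.81 in controls, and the difference was -2.07 (SE 0.43, 95% interval -3.06 to -1.07, limma adjusted p = 0.15). S100a4 stood above 43.7% to 51.5% of probe sets on the CKO arrays and above 63.2% to 77.6% on the control arrays. Whether its CKO values stood above background was not tested either, which limits the size given for its difference.

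F10 encodes coagulation factor X, a protease that macrophages can make outside the liver. It was at 7.37, 7.81 and 7.95 on CKO replicates 1, 2 and 3, and at 8.83, 7.87 and 8.60 on control replicates 1, 2 and 3. The groups overlapped, since control replicate 2 lay between CKO replicates 2 and 3. The difference of -0.72 (SE 0.34, 95% interval -1.50 to 0.05, limma adjusted p = 0.525) did not pass.

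**Figure D2:**
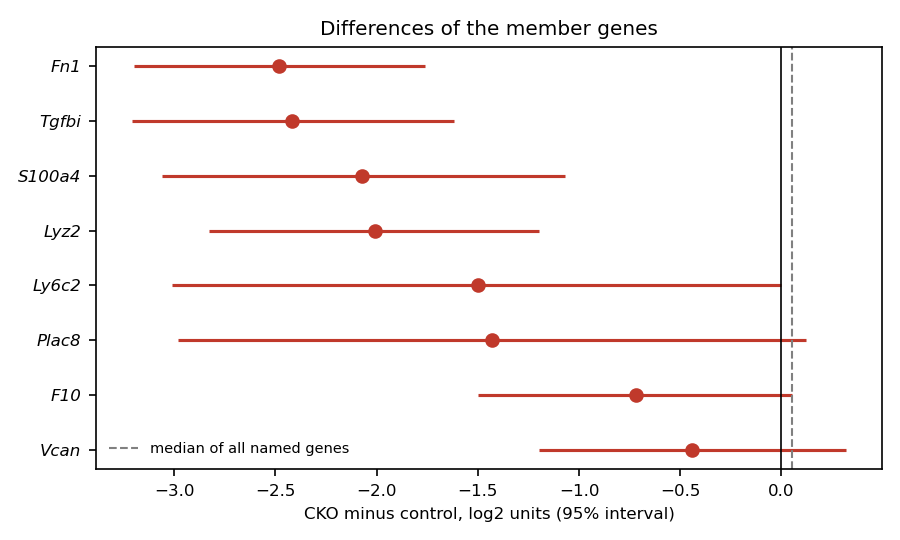
CKO minus control differences of the 8 genes in log2 units, with 95% intervals from the limma fit. The dashed line marks the median of all named genes (0.05). The points run from -2.48 for Fn1 to -0.44 for Vcan, and the intervals of Ly6c2, Plac8, F10 and Vcan reach or cross 0.

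The members did not share a single pattern over the arrays. Among control arrays, replicate 2 was the lowest for 5 members (Tgfbi, Ly6c2, Plac8, S100a4 and F10), and for Fn1 and Lyz2 it lay 0.15 and 0.07 above the mean of the other controls. Among CKO arrays, replicate 3 was the highest for 7 members and replicate 1 the lowest for 5. The mean deviation of the 8 members was -1.15, -0.92 and -0.39 on CKO replicates 1, 2 and 3, against 1.09, 0.22 and 1.14 on control replicates 1, 2 and 3. After Ly6c2 with Plac8, the closest pairs were Tgfbi with S100a4 (0.242) and Fn1 with Lyz2 (0.343), and the farthest was Fn1 with Vcan (1.02). These distances describe 6 arrays that share 2 groups and were not tested.

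**Figure D3:**
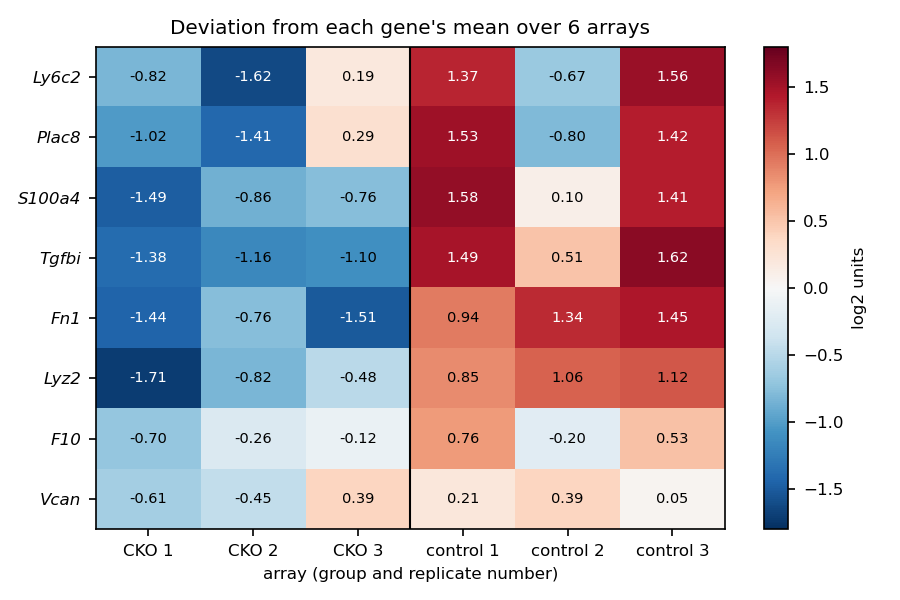
Deviation of each gene on each array from that gene's mean over the 6 arrays, in log2 units, with CKO arrays left of the line and control arrays right of it. Red is above and blue below the mean. Ly6c2 and Plac8 are below their mean on control replicate 2 (-0.67 and -0.80), where Fn1 and Lyz2 are above theirs (1.34 and 1.06).

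Genes whose centred values lay nearest to each member over the 6 arrays were found among all other named genes with a proper name. For Fn1 they were Mmp12, the macrophage elastase (mean absolute difference 0.163), Cd22 (0.20) and Cd72 (0.252), the last of these a lectin-like receptor of B cells. For Tgfbi they were Cd300lf, H2-T23 and Ifi27l2a (0.126 to 0.145), and for S100a4 Phf11b, Ifi27l2a and Serpinb6b (0.106 to 0.12). For Lyz2 they were Clec12a, an inhibitory lectin of myeloid cells (0.119), Cfp, which encodes properdin (0.176), and Clec4a1 (0.177). Ly6c2 and Plac8 shared Ly6c1 (0.124 and 0.139) and Cd36, a scavenger receptor (0.186 and 0.234), followed by Npnt (0.204) for Ly6c2 and Cd6 (0.296) for Plac8. Vcan was nearest to Matn3, Zfp773 and Omt2a (0.0511 to 0.0861), and F10 to Phf11c, Leprotl1 and Socs1 (0.0883 to 0.114).

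A wider list of 32 further genes of monocytes and their macrophages, 30 of them measured, had a median difference of -1.53, with 29 lower and 1 higher in CKO. None was called over all probe sets by limma, while 22 were lower and 0 higher at an unadjusted p under 0.05, and 22 had groups that did not overlap. S100a10, an annexin partner, was at 7.47, 7.73 and 7.12 in CKO and at 9.94, 9.39 and 9.91 in controls (difference -2.31, limma adjusted p = 0.0749). Vim, the intermediate filament vimentin, differed by -2.38 (0.0782 adjusted), Ms4a6c, a membrane protein gene of monocytes, by -1.91 (0.0804) and Cd44, the hyaluronan receptor, by -2.0 (0.121). Outside the rule for naming genes, Ccr2, the receptor that draws classical monocytes into tissue, was at 10.93, 12.59 and 12.30 in CKO and at 14.52, 13.48 and 13.79 in controls (-1.99, limma adjusted p = 0.20). Treml4, a receptor of patrolling monocytes also named after its values were seen, was the higher gene (0.10).

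Receptors and proteases of the matrix members did not share a direction. Of 18 genes, 9 were lower and 9 higher, with a median of 0.02 and 0 called by limma; 3 were lower and 0 higher at an unadjusted p under 0.05. These were Cd44, Itga4, an integrin chain that binds fibronectin (9.65, 10.96 and 10.92 in CKO, 13.17, 12.11 and 14 in controls, difference -2.58), and Tlr2, a receptor that versican engages (-1.55), at limma adjusted p of 0.121, 0.149 and 0.193. Itga5, the chain of the classical fibronectin receptor, differed by -0.78 (limma adjusted p = 0.537).

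Coagulation genes around F10 had a median of 0.11 over 26 measured genes, with 11 lower and 15 higher, 0 called, and 3 lower and 1 higher at an unadjusted p under 0.05. Plaur, the urokinase receptor, differed by -1.59, F13a1, the transglutaminase of clots that monocytes carry, by -0.88 and F2r, a thrombin receptor, by -0.83, while Pros1, a cofactor of protein C, differed by 0.70 (limma adjusted p = 0.125 to 0.465). F7, the neighbour and activating partner of F10, was at 4.74, 5.18 and 5.08 in CKO and at 4.55, 5.10 and 5.57 in controls, near the low end of the scale.

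The S100 genes other than S100a4 split. Of 15, 8 were lower and 7 higher (median -0.01, 0 called, 2 lower and 0 higher at an unadjusted p under 0.05). S100a10 and S100a6 differed by -2.31 and -1.56, and S100a11 by -0.98 with overlapping groups. S100a8 and S100a9, the calprotectin chains of neutrophils and monocytes, differed by -0.20 and 0.03 (limma adjusted p = 0.836 and 0.981). Of 17 Ly6 family genes, 8 were lower and 9 higher (median 0.07, 0 called). Ly6i had the smallest p and was at 7.61, 7.20 and 8.45 in CKO and at 11.03, 9.30 and 13.17 in controls (-3.41, limma adjusted p = 0.211). Of 9 lysozyme family genes other than Lyz2, 3 were lower, Lyz1 among them, and 6 higher, with a median of 0.20 and 0 called. Growth factor receptors and lineage factors of myeloid cells had a median of -0.53, with 15 of 17 lower, 0 called and 4 lower at an unadjusted p under 0.05. These 4 were Csf2ra, the GM-CSF receptor chain (10.32, 7.64 and 7.33 in CKO, 11.12, 10.10 and 10.54 in controls), and Nr4a1, Csf3r and Flt3, which differed by -1.06, -0.86 and -0.81 (limma adjusted p = 0.378 to 0.472 for the 4).

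Markers of other cells were set beside the members. Neutrophils also make lysozyme. Of 18 neutrophil markers 16 were lower, with a median of -0.56, 0 called by limma (4 lower and 0 higher at an unadjusted p under 0.05) and a mean level of 11.66 to 12.50 in CKO and 12.54 to 13.10 in controls. Ngp, a neutrophil granule gene outside the rule for naming genes, was at 19.51, 19.51 and 19.55 in CKO and at 19.67, 19.62 and 19.23 in controls. Lcn2, another granule gene also named after its values were seen, was at 19.45, 18.80 and 19.64 in CKO and at 19.51, 19.28 and 19.20 in controls. Neither separated the groups, but both lay near the top of the scale, where little difference can show. Il1r2 differed by -1.73 and Stfa2 by -1.33 (limma adjusted p = 0.0891 and 0.272). Itgam, the integrin CD11b of microglia, monocytes and neutrophils, was at 17.24, 16.83 and 16.81 in CKO and at 17.20, 16.73 and 16.90 in controls, a difference of 0.02 (95% interval -0.62 to 0.66, limma adjusted p = 0.987). Ptprc, the leukocyte antigen CD45, was at 13.62, 15.05 and 13.90 in CKO and at 15.49, 15.28 and 15.67 in controls (-1.29, limma adjusted p = 0.324).

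Resident microglia markers had a median of 0.13 with 15 of 21 higher in CKO, 0 called by limma (0 lower and 3 higher at an unadjusted p under 0.05) and a mean level of 15.78 to 16.46 in CKO and 15.63 to 16.12 in controls. Fcrls and Gpr34 differed by 1.21 and 0.89 (limma adjusted p = 0.312 and 0.383). T cell markers were all lower (14 of 14, median -2.36), with 0 called by limma and all 14 at an unadjusted p under 0.05. Their mean level was 6.67 to 7.25 in CKO and 8.32 to 10.12 in controls. Cd3d and Cd3g differed by -3.10 and -4.04 (limma adjusted p = 0.0745 and 0.107). The deviation of the T cell list was 0.05 on control replicate 2 and 1.86 and 1.84 on control replicates 1 and 3, the same array being low for Ly6c2 and Plac8. All 11 NK cell markers were lower (median -1.49, level 6.70 to 7.20 in CKO and 7.37 to 8.74 in controls). Klrb1c and Klrc1 differed by -1.49 and -2.02 (limma adjusted p = 0.231 and 0.247). Of 11 border-associated macrophage markers 9 were lower (median -0.79, level 8.46 to 8.83 in CKO and 9.44 to 9.70 in controls), with 0 called by limma and 5 lower and 1 higher at an unadjusted p under 0.05. The same 5 and 1 had groups that did not overlap. Ms4a7 and Siglec1 differed by -2.58 and -1.45. Outside the rule for naming genes, Lyve1, a hyaluronan receptor that defines a subset of these macrophages, differed by 1.33 (limma adjusted p = 0.145), while the scavenger receptors Mrc1 and Cd163 differed by -0.10 and 0.03 (adjusted p = 0.951 and 0.982). Of 9 B cell markers 7 and of 10 dendritic cell markers 9 were lower (medians -0.59 and -0.75). Levels were 5.67 to 6.62 in CKO and 6.83 to 7.47 in controls for B cells, and 6.20 to 7.18 in CKO and 7.42 to 7.88 in controls for dendritic cells. Of the B cell genes, Cd22 and Jchain differed by -2.22 and -4.98 (limma adjusted p = 0.0983 and 0.121). Of the dendritic cell genes, Ccl22 and Itgae differed by -3.66 and -1.03 (limma adjusted p = 0.145 and 0.222).

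Markers of stromal and neural cells, some of which make Fn1 or Vcan, had medians above 0. Fibroblast and pericyte markers had a median of 0.09 (5 of 11 lower, mean level 6.10 to 6.78 in CKO and 6.30 to 6.58 in controls), and endothelial markers 0.26 (4 of 11 lower, 7.16 to 7.53 in CKO and 7.20 to 7.49 in controls). Medians were 0.71 for astrocytes (2 of 11 lower, 8.89 to 12.22 in CKO and 8.36 to 10.79 in controls), 0.45 for oligodendrocytes and precursors (3 of 10 lower) and 0.74 for neurons (0 of 10 lower, 8.98 to 10.86 in CKO and 8.02 to 9.85 in controls). None of these lists held a gene called by limma, and at an unadjusted p under 0.05 they held 3 lower endothelial genes and 1 endothelial, 1 oligodendrocyte and 2 neuronal genes that were higher. The part of any of these cells in the members' values was not tested.

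**Figure D4:**
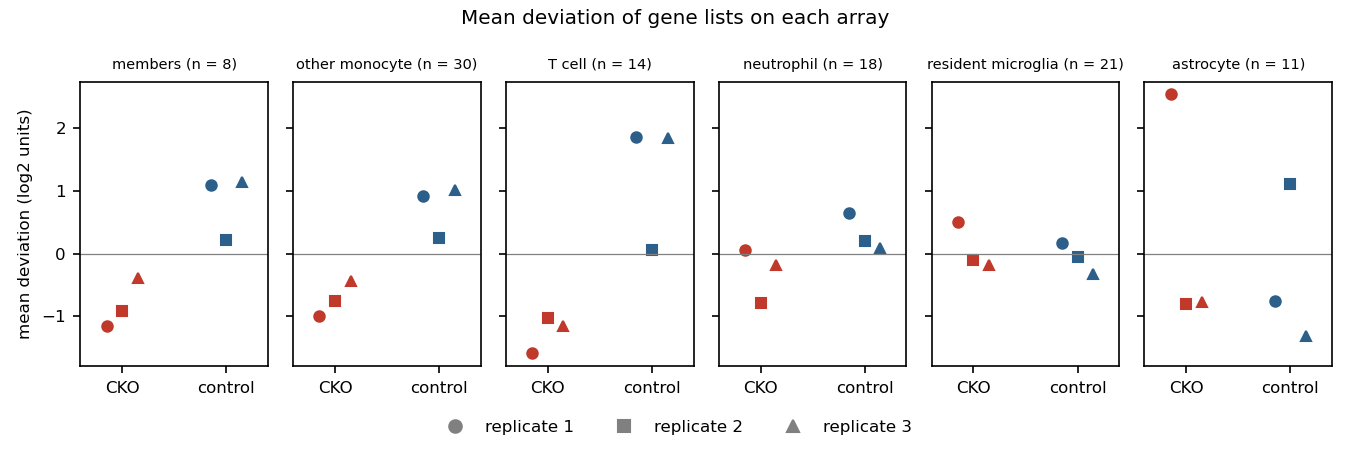
Mean deviation from the 6-array mean, in log2 units, of the 8 members and of 5 gene lists on each array, with CKO left and control right in each panel and symbols for the replicate number. The members, the other monocyte genes and the T cell markers are lower on all CKO arrays than on all control arrays, while astrocyte markers are highest on CKO replicate 1 (2.53) and control replicate 2 (1.11).

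The differences were recomputed with arrays left out. Each of the 8 members kept a lower CKO mean in all 6 omissions of 1 array. Leaving out CKO replicate 1 called Fn1 (limma adjusted p = 0.0109), Tgfbi (0.0135), Lyz2 (0.0147) and S100a4 (0.0363), where 9.95% of all probe sets were called in either direction. That CKO group is the 2 arrays with the narrow value range, so group and range cannot be told apart there. Leaving out control replicate 2 called Tgfbi (0.0223) and S100a4 (0.0384), with 0.563% of probe sets called, and gave 7 members with CKO values all below the control values, as in 14.1% of probe sets. Leaving out CKO replicate 3 put CKO below control on all arrays for all 8, as for 11% of probe sets, with 0 members called (smallest limma adjusted p = 0.374). Without both control replicate 2 and CKO replicate 1, the arrays with the highest astrocyte markers, 6 members were called, beside 11.3% of probe sets. Their limma adjusted p ran from 0.00269 to 0.0339, and F10 and Vcan were the exceptions. The CKO group is again the 2 arrays with the narrow value range, so group and range cannot be told apart in this setting either. CKO then lay wholly below control for 7 members and for 26% of probe sets. With CKO replicate 1 alone against the controls, the median was -2.13 and 0 were called, the lone array being assumed to vary like the controls. That array lay below all controls for 8 members and for 30.8% of probe sets.

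**Figure D5:**
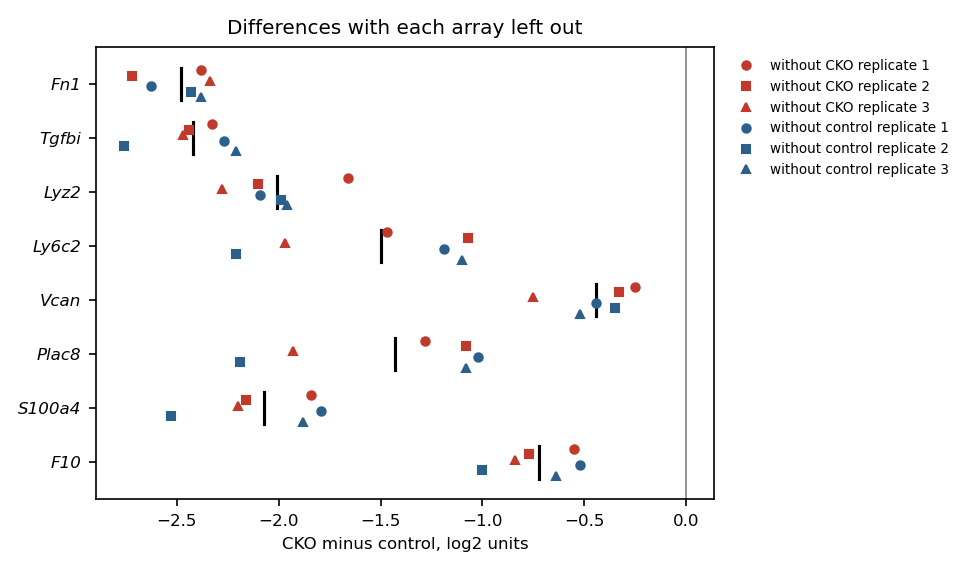
CKO minus control difference of each gene, in log2 units, with each of the 6 arrays left out in turn (red, a CKO array; blue, a control array; symbols give the replicate number). The black tick is the value with all arrays. Ly6c2 and Plac8 range from -2.21 to -1.07 and from -2.19 to -1.02, while Fn1 stays between -2.72 and -2.34.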

How the data were processed

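RNA of brain microglia was hybridised to 1 Affymetrix array per sample after labelling with a whole-transcript kit, per the labels' protocols. The deposited table holds log2 expression values that the authors made with RMA, per the submitters' processing notes. RMA corrects background, normalizes arrays and sums up probes, and its settings and version are stated in no source used here. Probe sets took gene symbols from the platform annotation (19572 with 1 symbol, 0 with several, 2634 unnamed here), and all 19572 matched the GRCm38.p6 gene table by Entrez number with 0 changed. All 6 value columns belong to a sample of the series.

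Groups came from the sample titles. Values were fitted with limma 3.58.1 under R 4.3.3. The model held the group alone (CKO minus control, eBayes with default settings), across all 22206 probe sets with Benjamini-Hochberg adjustment over all of them, and intervals are at 95%. The fit was tested on simulated data. With no scanner files used here, no measure of signal over background was available, and the number of arrays limits the precision. Gene lists are described by counts and medians without a test; listed genes without a value are not analysed here. The members, lists and settings were chosen with earlier results of these data known. Named genes were all members and Itgam, Ptprc, Tmem119, P2ry12, Ly6c1 and Lyz1. For each member the 3 genes nearest by mean absolute difference of centred values were named too. The rule also picked the genes with the smallest p of each list (up to 4 for pathway lists, up to 2 for cell types). Some of these picks are not printed, mainly those of the stromal, neural, Ly6 and lysozyme lists. Other genes are marked or added as comparisons after their values were seen. Promoters were aligned with Biopython 1.88. Alternatives were 4 normalizations, arrays left out, the replicate block, array weights, robust eBayes with a trend, omission of dim probe sets (lowest 20% or 50%), averaged probe sets and an adjusted p of 0.1.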

Additional observations from a re-analysis of the deposited data

How the results depend on the processing

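Of the 19 alternatives, 13 can move a mean difference and 6 (the omissions of dim probe sets, the trended robust fit, the replicate block, averaged probe sets and an adjusted p under 0.1) leave it as reported. All 8 members kept a lower CKO mean under those 13. Fn1 ranged from -2.72 to -2.30, Tgfbi from -2.76 to -2.14, Lyz2 from -2.72 to -1.64 and S100a4 from -2.53 to -1.79. The number of members called by limma, 0 of 8 in the reported fit (4 at an unadjusted p under 0.05), was 2 with arrays centred on the resident microglia list (Fn1 and Tgfbi), 4 with array weights, 6 without control replicate 2 and CKO replicate 1, and 2 at an adjusted p under 0.1; with each array left out it ranged from 0 to 4. Array weights gave CKO replicate 1 the lowest weight (0.258), against 1.05 and 1.43 for CKO replicates 2 and 3, the arrays with the narrow value range. Group and value range therefore cannot be fully told apart with array weights. They cannot be told apart at all without control replicate 2 and CKO replicate 1. Centring on microglia markers put the median of all probe sets at -0.18, against 0.06 as deposited, and moves every difference by the same amount; median centring put it at -0.06. Members with separate groups, 4 in the reported fit, numbered 5 with median centring and 6 with microglia centring, with all 6 arrays kept. They numbered 7 without control replicate 2 and CKO replicate 1, 8 with CKO replicate 1 as the lone CKO array, and 4 to 8 with each array left out. CKO lay wholly below control for 8.48% of probe sets in the reported fit, 10.9% with median centring and 16.9% with microglia centring. Fewer arrays separate more easily. The share was 26% without control replicate 2 and CKO replicate 1, 30.8% with CKO replicate 1 as the lone CKO array, and 11% to 21.3% with each array left out. All probe sets called, 2 in the reported fit, numbered 1 under quantile normalization and with the dimmest 20% or 50% left out, 4 with the trended robust fit, 37 with microglia centring, 1694 with array weights, 44 at an adjusted p under 0.1, 2516 without control replicate 2 and CKO replicate 1, 0 with CKO replicate 1 as the lone CKO array, and 0 to 2209 with each array left out. The cause was not tested. Nothing in the labels ties arrays of the same replicate number, and deviations of same-numbered arrays correlated at -0.00548, -0.23 and 0.254. With the replicate block 0 probe sets and 0 members were called (smallest member limma adjusted p = 0.153). The block lowered the SE from 0.66 to 0.35 for Ly6c2 and from 0.68 to 0.43 for Plac8 (limma adjusted p = 0.245 and 0.37). For Lyz2 it went from 0.36 to 0.32, and for the other members it stayed or rose slightly. Whether the arrays were paired was not tested. CKO replicate 1 correlated best with control replicate 2 (0.304). No other background correction was run. With 3 arrays per group, the differences of Ly6c2, Plac8, F10 and Vcan were not resolved from the spread between arrays, and no member passed the reported test.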
